A study of Rattus norvegicus with 16 samples.

Results

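Respiratory complex I was followed here through its transcripts in rat tibialis anterior, a fast muscle at the front of the lower leg. The members were all genes of the deposited table with the type protein-coding whose symbol starts with Nduf or Mt-nd, which gave 54 of 31141 genes. They comprised 38 nuclear subunits (7 core and 31 accessory), 7 assembly factors whose names start with Ndufaf, 7 mitochondrially encoded subunits, and Ndufa4 with its paralog Ndufa4l2, which are set apart because Ndufa4 is a subunit of complex IV despite its name. These counts are of gene rows and not of distinct subunits. The 3 symbols Ndufs5, Ndufb2 and Ndufa10l1 stand on 2 rows each, and Ndufv3-ps1 counts as accessory. Ndufs6 and Ndufb9 are not among the members under their own symbols. All groups were Wistar-Imamichi rats. DMD_KD was 6 libraries from Dmd-mutant rats given MCTKD, DMD_ND was 6 libraries from Dmd-mutant rats given a normal diet, and WT_ND was 4 libraries from wild-type rats given the same normal diet, with each diet running from weaning until 9 months of age. Dmd encodes dystrophin, the protein that links actin inside the fibre to the membrane and matrix, and whose loss causes Duchenne muscular dystrophy. The labels do not name the Dmd allele, do not spell out MCTKD (in nutrition research commonly a medium-chain triglyceride ketogenic diet), and leave unsaid whether every library came from its own animal. The p-values therefore describe variation among the libraries, which may be partly technical. No wild-type group on MCTKD was analysed here.

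Complex I is the entry point of the respiratory chain. It takes electrons from NADH through a flavin and a row of iron-sulfur clusters to ubiquinone, and couples this to pumping protons across the inner mitochondrial membrane. The catalytic core is shared with bacteria and is encoded partly in the nucleus (the Ndufs and Ndufv core subunits of the matrix arm) and partly in mitochondrial DNA (the Mt-nd subunits of the membrane arm). Accessory subunits surround the core, and assembly factors help to build the enzyme without staying in it. Skeletal muscle fibres, above all the oxidative types, are rich in it.

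Values are FPKM (fragments scaled by gene length and library depth), which the authors had scaled between libraries by a size factor. Fold changes are differences of mean log2(FPKM + 1), so those of weakly expressed genes come out too small, and a call is a limma adjusted p under 0.05 over all 12119 genes tested. Libraries held 17125084 to 28116085 assigned reads. Dmd itself read 0.546 to 2.04 FPKM in DMD_KD, 1.37 to 1.98 FPKM in DMD_ND and 4.13 to 11.9 FPKM in WT_ND, so neither mutant group overlapped the wild type. Muscle fibre markers were detected in every library, with none at 0. DMD_KD replicate 3 stood apart from the other mutant libraries: its nuclear subunits summed to 6761.78 FPKM, against 2816.59 to 3943.38 FPKM in the other DMD_KD libraries. Results that involve DMD_KD are therefore given with and without it. WT_ND replicates 1 and 4 also differed from replicates 3 and 9 along the second principal component, and leaving out that pair moved 13 of 52 members by more than 1.5 times or changed their sign in DMD_ND against WT_ND, and 20 in DMD_KD against WT_ND. It ended the call of 8 members in the first comparison and of 20 in the second. Over all genes, 3251 of 11977 were then called lower in the first and 2733 in the second, against 4152 and 3764 of 12119 with the pair.

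Of the 54 members, 52 passed the filter (at least 1 FPKM in at least 4 libraries) and were tested. Among those that did not pass was the Ndufb2 row on chromosome 15, which had 0 FPKM in all 16 libraries. The core nuclear subunits are described from the 6 that were tested.

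In dystrophic muscle on the normal diet, nearly the whole complex was lower than in wild-type muscle. Of the 52 tested members, 49 fell in DMD_ND against WT_ND and none rose (limma). The background was that 34.3% of all tested genes were called lower in this comparison, against 94.2% of the members. In 48 members every DMD_ND library lay below every WT_ND library, a pattern that 28.3% of all tested genes showed. The median log2 fold change was -1.76 for the 7 mitochondrially encoded subunits, -1.14 for the 36 nuclear subunits tested and -0.83 for the 7 assembly factors, with -0.04 over all tested genes. The fall is relative to the size-factor scaling: after TPM scaling (values summing to the same total in each library) 21 members were called lower and 8 higher, where 5.94% of all tested genes were lower and 70.7% higher, and the class medians were -0.74, -0.13 and 0.15 in the same order. TPM moved the median of all genes to 0.83, and relative to that median the classes stood at -1.57, -0.96 and -0.67. All tested mitochondrially encoded and core subunits were also called lower after TPM scaling.

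**Figure D1:**
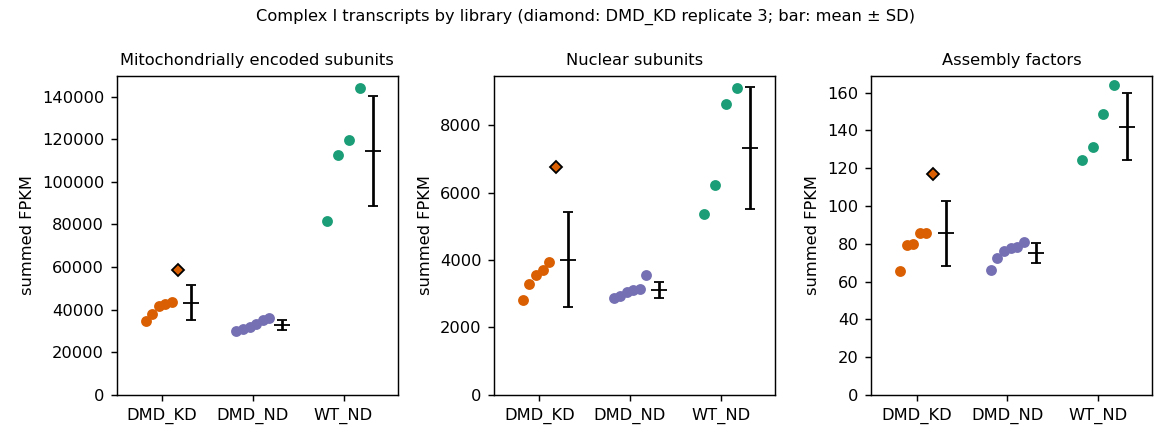
Summed FPKM (vertical axes, from 0) of the mitochondrially encoded subunits, the nuclear subunits and the assembly factors in each library of DMD_KD, DMD_ND and WT_ND. Points are libraries, the outlined diamond is DMD_KD replicate 3, and the bar is the mean ± SD. Under the deposited scaling the DMD_ND libraries sit below the WT_ND libraries in each panel (after TPM scaling the median fold change of assembly factors is 0.15), and DMD_KD replicate 3 is the highest of its group.

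The mitochondrially encoded subunits build the proton-pumping membrane arm. They were the most abundant members and the class that fell furthest. Together they took 4.23 ± 0.349% of assigned reads in DMD_KD, 3.80 ± 0.260% in DMD_ND and 7.15 ± 0.893% in WT_ND (SD, n = 6, 6 and 4). The nuclear members took 0.538 ± 0.0568%, 0.507 ± 0.0200% and 0.657 ± 0.0422% in the same order of groups. For the mitochondrial class every WT_ND library lay above every mutant library, whereas for the nuclear members WT_ND and DMD_KD overlapped. The libraries were made from poly-A RNA, and nuclear copies of mitochondrial genes can share reads with them, so these levels depend on capture and on how the authors counted such reads.

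Mt-nd1, whose protein joins the membrane arm to the ubiquinone site, read 7788.12, 8647.72 and 15948.9 FPKM in DMD_KD (lowest, median and highest), 5923.06, 6566.52 and 7370.24 FPKM in DMD_ND, and 37399.4, 24706.1, 30539.1 and 17579.3 FPKM in WT_ND replicates 1, 3, 4 and 9. The lowest DMD_KD library exceeded the highest DMD_ND library, and both groups lay below WT_ND without overlap. Its log2 fold change in DMD_ND against WT_ND was -2.004 ± 0.22 (SE, limma adjusted p = 7e-07), the largest fall of any member. Mt-nd5, one of the antiporter-like pump subunits, read 2199.23, 2424.35 and 3424.79 FPKM in DMD_KD, 1614.73, 1910.24 and 2145.27 FPKM in DMD_ND, and 8807.06, 7655.77, 6110.55 and 5878.15 FPKM in the 4 WT_ND libraries. It showed the same order of groups, again with no overlap between any pair. The log2 fold change in DMD_ND against WT_ND was -1.91 ± 0.17 (SE, limma adjusted p = 3.8e-08).

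The other pump subunits fell to a similar degree. Mt-nd2 averaged 8882.36 ± 667 FPKM in DMD_ND and 30619.9 ± 6937.2 FPKM in WT_ND (SD, n = 6 and 4), a log2 fold change of -1.76. Mt-nd4 and Mt-nd4l, which lie side by side on the mitochondrial chromosome and share 7 bases, had log2 fold changes of -1.65 and -1.77. Mt-nd3, a small subunit near the junction of the arms, had the least negative value of the class at -1.56 ± 0.20 (SE, limma adjusted p = 2.7e-06). Mt-nd6, the member encoded on the opposite strand, averaged 1908.28 ± 165 FPKM in DMD_ND and 6059.28 ± 1227.06 FPKM in WT_ND, a log2 fold change of -1.65. Its annotated end overlaps that of Mt-nd5 and the sources used here do not state the strand setting, so reads in that overlap cannot be told apart. The 6 mitochondrially encoded genes of the other complexes (Mt-co1, Mt-co2, Mt-co3, Mt-cyb, Mt-atp6 and Mt-atp8) also all fell, with a median of -1.66, and all 6 were called lower after TPM scaling too (median -0.64).

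The tested core subunits of the matrix arm were all lower in DMD_ND, with log2 fold changes between -1.67 and -1.30 and a median of -1.54. Ndufs7, which carries the iron-sulfur cluster that hands electrons to ubiquinone, read 24.1, 33.0 and 73.8 FPKM in DMD_KD (lowest, median and highest), 22.1, 26.4 and 28.8 FPKM in DMD_ND, and 105, 70.7, 107 and 61.4 FPKM in WT_ND replicates 1, 3, 4 and 9. DMD_ND lay wholly below WT_ND, whereas DMD_KD replicate 3 reached into the wild-type range. Its log2 fold change in DMD_ND against WT_ND was -1.67 ± 0.24 (SE, limma adjusted p = 9.9e-06), the largest fall among nuclear members. Ndufs7 overlaps Dazap1 and Gamt on the annotation.

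Ndufs1, the large subunit that holds several of the iron-sulfur clusters, differed in pattern from the rest. It read 81.3, 108 and 139 FPKM in DMD_KD, 69.9, 97.6 and 104 FPKM in DMD_ND, and 298, 315, 267 and 269 FPKM in the 4 WT_ND libraries. DMD_KD replicate 3 was the lowest library of its group here, at 81.3 FPKM, although it was the highest for Ndufs7 and Ndufv1. The log2 fold change was -1.64 ± 0.16 in DMD_ND against WT_ND (SE, limma adjusted p = 1.2e-07) and -1.40 ± 0.16 in DMD_KD against WT_ND (adjusted p = 1.2e-06). Ndufv1, which binds NADH and the flavin, averaged 105 ± 9.83 FPKM in DMD_ND and 328 ± 78.7 FPKM in WT_ND, a log2 fold change of -1.60. Ndufv2, its partner in the NADH-oxidising tip and the most abundant core subunit, averaged 237 ± 28.3 FPKM in DMD_ND and 590 ± 93.3 FPKM in WT_ND, a log2 fold change of -1.30. Ndufs8 and Ndufs3, which continue the electron path and the scaffold around it, had log2 fold changes of -1.47 and -1.42.

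Among the 30 accessory subunits tested, 29 fell in DMD_ND and the median log2 fold change was -1.06. The range was wide, between -1.60 and 0.06. Ndufa9, which lies at the junction of the arms, and Ndufa10, given in the table under the symbol Ndufa10l1 on chromosome 9, had the most negative values at -1.60 each (SE 0.22 and 0.20, limma adjusted p = 7.5e-06 and 2.6e-06). Ndufab1, the mitochondrial acyl carrier protein, had -1.46, and the membrane-arm subunit Ndufb3 had -1.04 ± 0.13 (adjusted p = 2.1e-06). The least changed among those called were Ndufs5 on chromosome 5 at -0.47 ± 0.16 (adjusted p = 0.015, or -0.29 and 0.2 without WT_ND replicates 1 and 4) and Ndufa1, needed for building the membrane arm, at -0.69 ± 0.14 (adjusted p = 0.00046). Ndufb8, the most abundant nuclear member, read 263, 374 and 887 FPKM in DMD_KD (lowest, median and highest), 306, 322 and 383 FPKM in DMD_ND, and 869, 555, 952 and 487 FPKM in WT_ND replicates 1, 3, 4 and 9. WT_ND replicates 1 and 4 were high and replicates 3 and 9 low, and the DMD_KD maximum was replicate 3. Its log2 fold change in DMD_ND against WT_ND was -1.07 ± 0.27 (limma adjusted p = 0.002), and -0.67 (adjusted p = 0.08) without WT_ND replicates 1 and 4. After TPM scaling the accessory median was -0.05, with 8 called lower and 5 called higher (Ndufa2, Ndufa3, Ndufa13 and both Ndufs5 rows), so the direction of single accessory subunits depends on the scaling.

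Ndufa3, a small membrane-arm subunit, was the 1 nuclear subunit not called. It read 0.790, 1.20 and 1.44 FPKM in DMD_KD, 0.970, 1.25 and 1.52 FPKM in DMD_ND, and 0.828, 1.73, 0.565 and 1.75 FPKM in WT_ND replicates 1, 3, 4 and 9. The groups overlapped, with the WT_ND libraries at both ends of the range. Its log2 fold change was 0.06 ± 0.15 in DMD_ND against WT_ND (limma adjusted p = 0.73), and the sign turned when WT_ND replicate 1 or 4 was left out. On the annotation Ndufa3 lies wholly within Tfpt, a gene on the other strand. Tfpt averaged 3.32 ± 0.871 FPKM in DMD_KD, 3.39 ± 0.523 FPKM in DMD_ND and 3.76 ± 1.22 FPKM in WT_ND. The strand setting is not stated, so reads of Ndufa3 and Tfpt cannot be told apart where they overlap. Another row, on chromosome 2 and without a symbol, carries the same protein description as Ndufa3. It averaged 20.1 ± 9.10 FPKM in DMD_KD, 13.7 ± 2.32 FPKM in DMD_ND and 31.2 ± 7.98 FPKM in WT_ND. In all, 42 rows outside the naming rule were described as complex I subunits, of which 8 passed the filter. They include an unnamed row described as Ndufs6 (91.3 ± 41.2, 77.0 ± 15.8 and 144 ± 24.7 FPKM in DMD_KD, DMD_ND and WT_ND) and the Rnf139 row, whose protein description is that of Ndufb9 (45.5 ± 19.9, 30.8 ± 1.74 and 81.8 ± 25.0 FPKM). The member Ndufv3-ps1 has a pseudogene's name but the type protein-coding, and it was kept. The chromosome 4 row named Ndufb2 is described as the kinase Adck2 and the row named Ndufa7 as CD320, so their values may mix neighbouring genes.

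**Figure D2:**
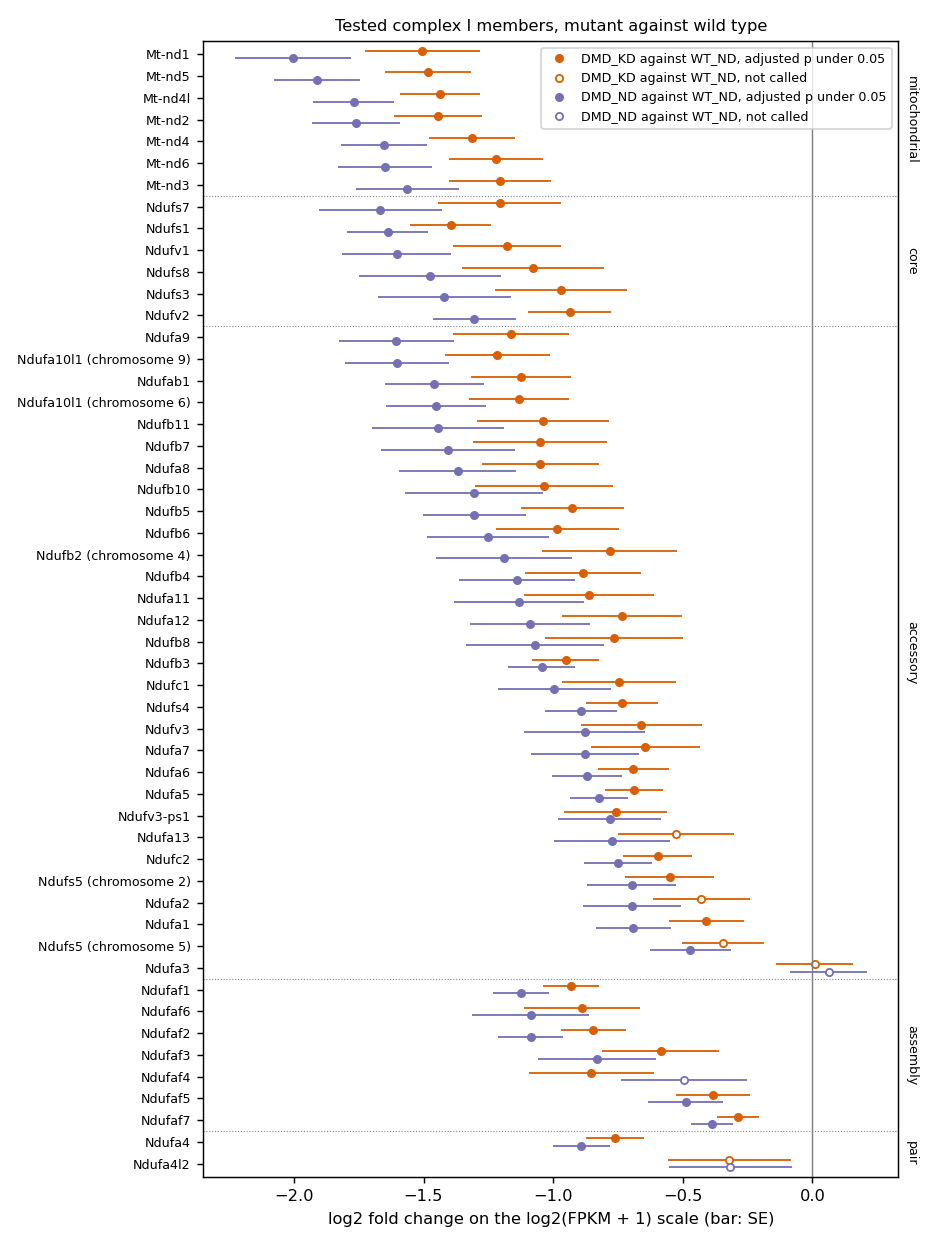
Log2 fold change on the log2(FPKM + 1) scale (horizontal axis, bars are SE) of the 52 tested members, in DMD_KD against WT_ND and in DMD_ND against WT_ND. Rows are grouped by class as named at the right (pair: Ndufa4 and Ndufa4l2), and filled points were called by limma. Nearly all points lie left of 0 under the deposited scaling (18 of the DMD_ND values are positive after TPM scaling), with Ndufa3 near 0. By class median the Mt-nd genes lie furthest left, followed by the core subunits. Some accessory subunits, such as Ndufa9 at -1.60 in DMD_ND against WT_ND, lie left of members of both classes.

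Nuclear subunits were also grouped by place in the enzyme. The 4 tested in the ubiquinone-reducing Q module had a median log2 fold change of -1.45 in DMD_ND against WT_ND. Of these, Ndufs3, Ndufs7 and Ndufs8 are core subunits, and the accessory Ndufa5 had -0.82. The 17 nuclear subunits placed in the membrane arm, all accessory, had -1.07, and the 9 of the NADH-oxidising N module -0.89. The membrane-arm value leaves out the Mt-nd subunits, whose median was -1.76. Ndufa9, Ndufa11, Ndufab1, Ndufv3-ps1 and both Ndufa10l1 rows were not placed in any of these groups. The groups differ in their share of core subunits, so their medians do not separate place in the enzyme from class. Within the N module the 3 core subunits (Ndufs1, Ndufv1 and Ndufv2) had -1.30 to -1.64, and the 6 accessory subunits (Ndufa2, Ndufa6, Ndufa7, Ndufa12, Ndufs4 and Ndufv3) had -0.70 to -1.09. The difference between core and accessory subunits does not depend on the scaling of a library, since both are read in the same library. The median log2(FPKM + 1) of core minus that of accessory subunits was 0.47 to 0.82 in DMD_KD, 0.29 to 0.57 in DMD_ND and 0.80 to 1.07 in WT_ND. DMD_ND lay below WT_ND without overlap, while the highest DMD_KD library lay above the lowest WT_ND library. The same measure for mitochondrially encoded minus nuclear subunits was 5.92 to 6.26 in DMD_KD, 5.93 to 6.11 in DMD_ND and 6.43 to 6.64 in WT_ND, so both mutant groups lay below wild type without overlap. Across the 36 tested nuclear subunits, the fold change in DMD_ND against WT_ND was lower for more abundant genes (Spearman's rho -0.26 with the mean FPKM, Pearson's r -0.47 with its log2), a description over genes that share the same libraries. The log2(FPKM + 1) scale makes the fold changes of weakly expressed genes too small, which by itself gives a relation in this direction. Its part in these values was not tested.

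**Figure D3:**
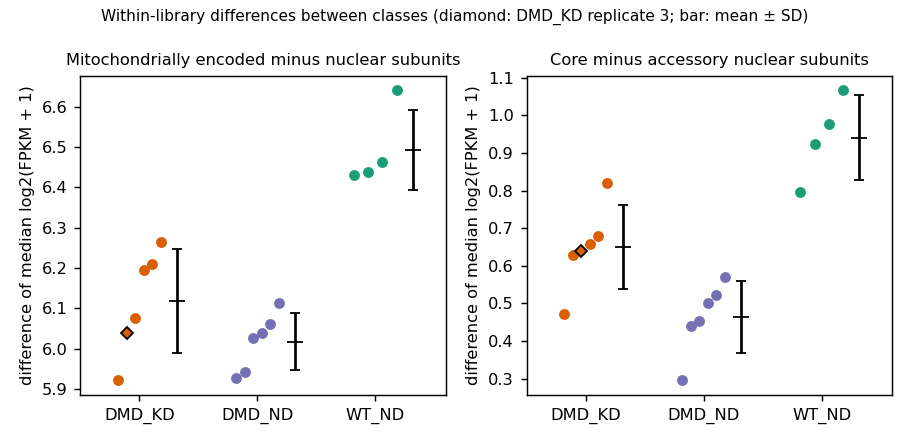
Difference of median log2(FPKM + 1) between classes within each library (vertical axes, not starting at 0), for mitochondrially encoded minus nuclear subunits and for core minus accessory nuclear subunits, in DMD_KD, DMD_ND and WT_ND. Points are libraries, the outlined diamond is DMD_KD replicate 3 and the bar is the mean ± SD. In the left panel the 4 WT_ND libraries lie at 6.43 to 6.64, above all mutant libraries.

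Of the 7 assembly factors, 6 fell in DMD_ND. Without WT_ND replicates 1 and 4, Ndufaf3 and Ndufaf5 were not called (limma adjusted p = 0.16 and 0.072), whereas Ndufaf4 was. Ndufaf1, which acts in the early assembly of the membrane arm, read 7.09, 9.23 and 9.90 FPKM in DMD_KD (lowest, median and highest), 6.23, 8.11 and 8.72 FPKM in DMD_ND, and 16.8, 17.998, 19.3 and 18.1 FPKM in WT_ND replicates 1, 3, 4 and 9. Both mutant groups lay below all WT_ND libraries. The log2 fold change in DMD_ND against WT_ND was -1.12 ± 0.11 (SE, limma adjusted p = 1.1e-07), the largest fall of the class. Ndufaf2, a chaperone that takes part in the last steps of matrix-arm assembly, and Ndufaf6 had -1.09 each, whereas Ndufaf7, a mitochondrial methyltransferase, had -0.39 ± 0.08 (adjusted p = 0.00045) at the lowest level of the class, 2.28 ± 0.164 FPKM in DMD_ND and 3.30 ± 0.403 FPKM in WT_ND.

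Ndufaf4, which works with Ndufaf3 in early assembly, was the exception. It read 3.26, 8.94 and 11.9 FPKM in DMD_KD, 8.15, 9.74 and 11.2 FPKM in DMD_ND, and 12.1, 17.9, 10.6 and 17.3 FPKM in WT_ND replicates 1, 3, 4 and 9. The lowest value of all, 3.26 FPKM, was DMD_KD replicate 3, and DMD_ND overlapped WT_ND through replicate 4. Its log2 fold change in DMD_ND against WT_ND was -0.50 ± 0.24 (limma adjusted p = 0.081, or 0.019 when DMD_KD replicate 3 is left out of the shared estimate of spread, and 0.034 with a value of -0.79 without WT_ND replicates 1 and 4), and in DMD_KD against WT_ND it was -0.85 ± 0.24 (adjusted p = 0.0062) with that library and -0.66 (adjusted p = 0.0047) without it. After TPM scaling no assembly factor was called lower and Ndufaf5 and Ndufaf7 were called higher in DMD_ND. Of 11 other assembly factors with different names (such as Ecsit, Acad9 and Tmem70), 10 fell in DMD_ND with a median of -0.89, whereas after TPM scaling 1 was called lower and 3 higher with a median of 0.069. The 1 called lower after TPM scaling was Ecsit (log2 fold change -0.63, limma adjusted p = 4.1e-06), and the 3 higher were Timmdc1, Sfxn4 and Nubpl. Tmem70, which helps to build the membrane arm, averaged 16.4 ± 2.15 FPKM in DMD_ND and 42.0 ± 2.79 FPKM in WT_ND. After TPM scaling Tmem70 was not called (log2 fold change -0.34, adjusted p = 0.07).

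Ndufa4 fell with the rest, while Ndufa4l2 was tested and not called. Ndufa4 averaged 107 ± 6.81 FPKM in DMD_ND and 199 ± 15.3 FPKM in WT_ND, a log2 fold change of -0.89 ± 0.11 (limma adjusted p = 2.2e-06) that was 0.12 after TPM scaling. Ndufa4l2, known as a hypoxia-induced paralog, read 2.70, 3.65 and 5.47 FPKM in DMD_ND and 8.04, 3.86, 5.10 and 3.72 FPKM in WT_ND replicates 1, 3, 4 and 9. These ranges overlapped, and the log2 fold change was -0.32 ± 0.24 (adjusted p = 0.25) or, after TPM scaling, 0.56 (adjusted p = 0.029). Without WT_ND replicates 1 and 4 it was -0.00097.

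Promoters of the nuclear members (250 bases before to 50 after the start, RefSeq, build GRCr8) were searched on both strands for sites of factors known for nuclear respiratory genes. A promoter was matched by symbol and chromosome for 39 of the 47 nuclear members. The YY1 site AAGATGGC was in 8 of them (20.51%), against 3.17% of all 33465 promoters in the table. The NRF1 core GCGCATGC was in 4 (10.3%, against 2.47%), the ETS site CCGGAAGT in 3 (7.69%, against 3.80%) and the ERR site TNAAGGTCA in 1 (2.56%, against 1.20%). The NRF1 core is close to its own reverse complement, so both strands matched in overlapping positions in Ndufa11, Ndufaf4 and Ndufaf5. Such matches describe letters and not binding. The windows around the YY1 matches are shown because all 8 ran in the sense direction and began between 1 base before and 27 bases after the start. The site also holds ATG, the letters of a start codon, and whether these matches lie at the start of translation was not tested. Capitals mark the match, and each line gives the window on GRCr8, 5′ to 3′ on the gene's strand.

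Ndufs7 (chr7:10110477-10110504, minus strand): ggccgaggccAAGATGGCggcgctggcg
Ndufa9 (chr4:161374143-161374170, minus strand): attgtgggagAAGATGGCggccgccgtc
Ndufb8 (chr1:253362898-253362925, minus strand): ggagaaggtgAAGATGGCggcgtcccgg
Ndufs4 (chr2:47794893-47794920, minus strand): tgcccacaggAAGATGGCggcggtctca
Ndufa6 (chr7:115750285-115750312, minus strand): cttccttagcAAGATGGCggccgcggcc
Ndufa2 (chr18:28631841-28631868, minus strand): tttgctagcaAAGATGGCggccgcaagc
Ndufa3 (chr1:74515525-74515552, minus strand): gtccaagaccAAGATGGCtgctagtaag
Ndufa4l2 (chr7:65242158-65242185, plus strand): acactggaacAAGATGGCaggaaccagt

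The lines run from the most to the least negative fold change among the subunits, with Ndufa4l2 last. Genes with this match spanned nearly the whole range of the nuclear members in DMD_ND against WT_ND, with -1.67 for Ndufs7, -1.60 for Ndufa9, -1.07 for Ndufb8, -0.89 for Ndufs4, -0.87 for Ndufa6, -0.70 for Ndufa2 (-0.41 without WT_ND replicates 1 and 4), 0.06 for Ndufa3 and -0.32 for Ndufa4l2. Yy1 itself was not called, at 17.3 ± 0.873 FPKM in DMD_ND and 19.3 ± 2.80 FPKM in WT_ND (limma adjusted p = 0.21), and after TPM scaling it was called higher (log2 fold change 0.84).

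Of 9 tested regulators of nuclear respiratory genes, 4 were called lower in DMD_ND and 2 higher, and after TPM scaling 3 were lower (without Ppargc1b) and 5 higher. The lower ones were the coactivators Ppargc1a and Ppargc1b and their partner receptors Esrra and Esrrg. Ppargc1a, a coactivator of mitochondrial biogenesis, averaged 1.23 ± 0.485 FPKM in DMD_ND and 6.78 ± 2.73 FPKM in WT_ND, a log2 fold change of -1.77 (limma adjusted p = 1.1e-06). The higher ones were Gabpb1, at 3.14 ± 0.316 FPKM in DMD_ND and 2.12 ± 0.609 FPKM in WT_ND, and Pprc1. All 9 genes for transcription, copying and RNA stability of mitochondrial DNA fell, with a median of -0.99, whereas after TPM scaling 2 were called lower and 2 higher with a median of -0.035. Lrpprc, which stabilises mitochondrial mRNAs, had the most negative value, at 16.2 ± 2.67 FPKM in DMD_ND and 49.7 ± 3.53 FPKM in WT_ND, a log2 fold change of -1.57 (adjusted p = 2.8e-08) and, after TPM scaling, -0.61 (adjusted p = 0.0035). All 7 tested members of the other enzymes that pass electrons to ubiquinone fell too, with a median of -1.27, and after TPM scaling 4 of them were called lower with a median of -0.26. Sdha, the flavin subunit of complex II, averaged 79.4 ± 9.55 FPKM in DMD_ND and 272 ± 16.4 FPKM in WT_ND.

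Marker transcripts of the tissue's cell types also differed between DMD_ND and WT_ND. All 12 tested markers of muscle fibres fell in DMD_ND, with a median of -1.36 (6 called lower and a median of -0.35 after TPM scaling), and their sum was 28273.6 to 47489.6 FPKM in DMD_ND against 75392.1 to 135084 FPKM in WT_ND. All 10 macrophage markers rose, with sums of 246.64 to 350.803 FPKM in DMD_ND against 18.1515 to 47.2259 FPKM in WT_ND. All 8 markers of fibro-adipogenic progenitors rose as well, with sums of 1307.79 to 2057.61 FPKM in DMD_ND against 93.9257 to 227.947 FPKM in WT_ND. The macrophage and progenitor markers were all called higher after TPM scaling as well. Of 5 endothelial markers 2 fell and none rose, but after TPM scaling none fell and 3 rose. Of 8 pericyte and smooth-muscle markers 4 rose and 1 fell, and after TPM scaling 6 rose and 1 fell. No marker was at 0 in any library. In bulk muscle, fewer fibres and less RNA per fibre cannot be told apart, and the part of the tissue's makeup in the complex I result was not tested.

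In dystrophic rats, the MCTKD group was set against the normal-diet group to ask whether complex I transcripts differed with diet. No member was called in DMD_KD against DMD_ND by limma. The exact rank-sum test called 0 of all 12119 tested genes there, so its empty result says nothing particular about the members. The background of limma calls was low as well, with 0.00825% of all tested genes called higher. Of the 52 members, 49 had a positive log2 fold change, and 13 (25.0%) had an unadjusted p under 0.05, all higher in DMD_KD, where 6.65% of all tested genes met the same rule in that direction. These were 5 of the 7 mitochondrially encoded subunits, 3 core and 4 accessory subunits and 1 assembly factor. Median log2 fold changes were 0.36 for the mitochondrially encoded, 0.27 for the nuclear subunits and 0.19 for the assembly factors, with -0.01 over all tested genes.

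Part of this rested on DMD_KD replicate 3. Without it the medians were 0.29, 0.12 and 0.08 in the same order, and 6 members had an unadjusted p under 0.05 (4 mitochondrially encoded and 2 core subunits), where 5.39% of all tested genes met that rule in the higher direction. That library also had the highest sum of fibre markers of its group, 114950 FPKM, where the DMD_KD libraries began at 38009.6 FPKM. After TPM scaling the medians were 0.09, 0.00 and -0.05, and the median of all genes was -0.24. Relative to that median the classes stood at 0.33, 0.25 and 0.19.

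**Figure D4:**
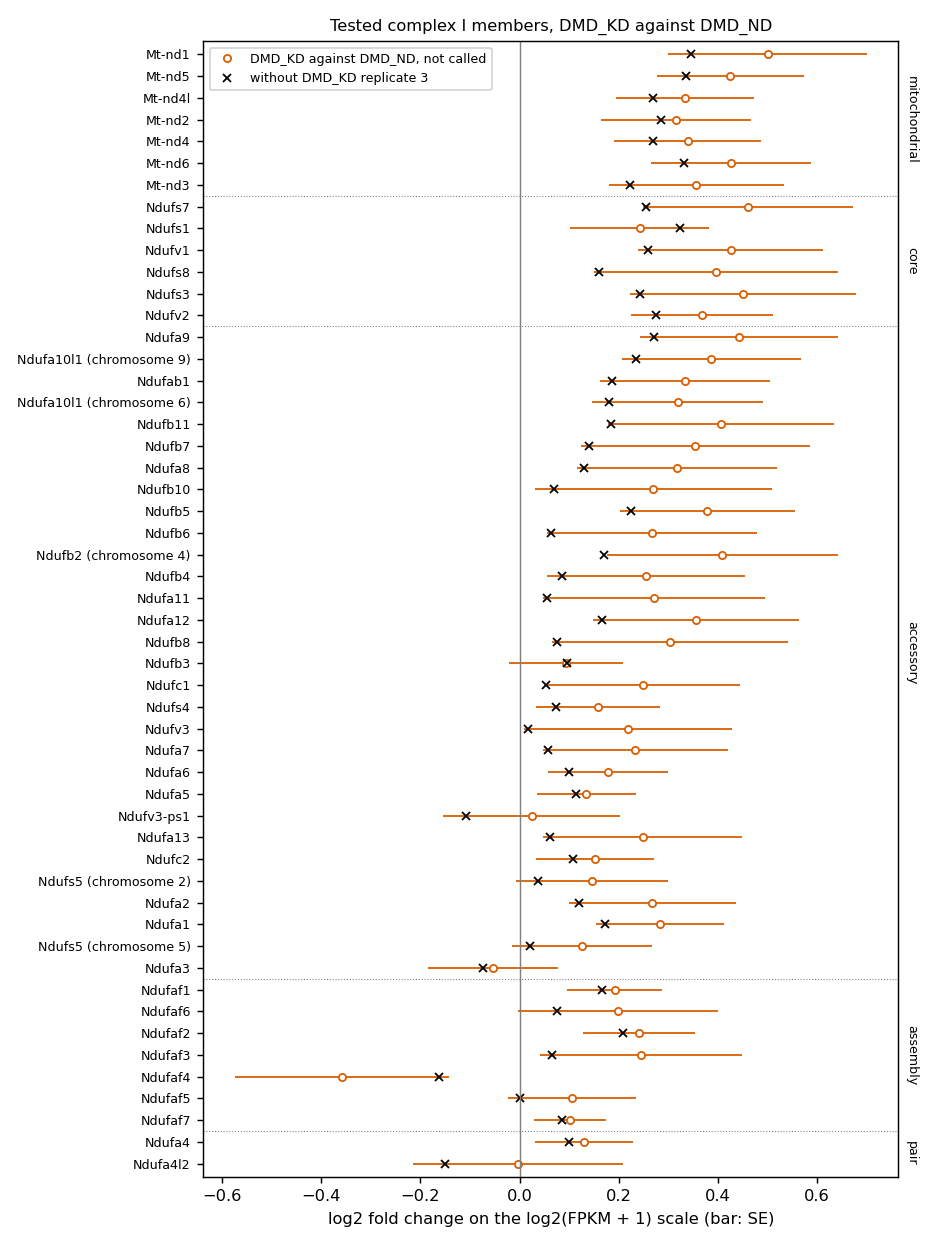
Log2 fold change on the log2(FPKM + 1) scale (horizontal axis, bars are SE) of the 52 tested members in DMD_KD against DMD_ND, with open points because none was called, and crosses for the value without DMD_KD replicate 3. Rows are grouped by class as in the labels at the right. Most points lie right of 0 (49 of 52, or 26 after TPM scaling). Most crosses lie between 0 and the point, while those of the Mt-nd genes stay at 0.22 or above.

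The mitochondrially encoded members kept most of their difference without replicate 3. Mt-nd1 had a log2 fold change of 0.50 ± 0.20 (SE) in DMD_KD against DMD_ND (limma adjusted p = 0.29) and 0.35 without replicate 3, and Mt-nd5 had 0.42 ± 0.15 (adjusted p = 0.24) and 0.33 without it. These were the 2 members without overlap between the diets (DMD_KD above DMD_ND), a separation seen in 0.842% of all tested genes. Mt-nd2 had 0.31 ± 0.15 (adjusted p = 0.35) and 0.29 without it. Its values were 8484.91, 11410.8 and 12372.9 FPKM in DMD_KD (lowest, median and highest) and 8224.09, 8572.68 and 9892.22 FPKM in DMD_ND, so the groups overlapped.

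Among nuclear members the largest value was that of the core subunit Ndufs7, followed by Ndufs3 (0.45 ± 0.23). Ndufs7 had 0.46 ± 0.21 (SE; limma, adjusted p = 0.34) in DMD_KD against DMD_ND and 0.25 without replicate 3, and Ndufv1 had 0.43 ± 0.19 (adjusted p = 0.32) and 0.26. Ndufs1 had 0.24 ± 0.14 (adjusted p = 0.41) and a higher value, 0.32, without it, as did Ndufaf4 and Ndufb3 (0.096, against 0.094 with it). Ndufa9, at 0.44 ± 0.20 (adjusted p = 0.33), was the highest accessory subunit and had 0.27 without it. In the assembly class Ndufaf4 had -0.36 ± 0.22 (adjusted p = 0.43), the lowest value of any member, and -0.16 without replicate 3. In Ndufaf3 the pattern ran the other way, with 18.8, 24.7 and 48.3 FPKM in DMD_KD, where 48.3 was replicate 3, and 19.1, 21.5 and 24.6 FPKM in DMD_ND.

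No gene of the related lists was called between the diets either (limma). Lrpprc had 21.7 ± 3.18 FPKM in DMD_KD and 16.2 ± 2.67 FPKM in DMD_ND, a log2 fold change of 0.41 (adjusted p = 0.20). Ppargc1a had 1.62 ± 0.497 FPKM in DMD_KD and 1.23 ± 0.485 FPKM in DMD_ND. The median log2 fold change was 0.34 for the other ubiquinone-reducing enzymes, 0.42 for the other mitochondrially encoded genes and 0.43 for the fibre markers (0.073, 0.15 and 0.16 after TPM scaling), where the nuclear subunits had 0.27. Their part in the complex I values was not tested.

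Set against wild type, dystrophic muscle on MCTKD was still low in complex I transcripts. In DMD_KD against WT_ND, 47 of 52 members fell and none rose (limma), or 90.4%, where 31.1% of all tested genes were called lower. Leaving out DMD_KD replicate 3 gave 50, where 4126 of all 12087 tested genes were called lower. Leaving out WT_ND replicates 1 and 4 together gave 28, where 2733 of all 11977 tested genes were called lower. All DMD_KD libraries lay below all WT_ND libraries in 22 members, against 17.3% of all tested genes. The median log2 fold changes were -1.44 for the mitochondrially encoded, -0.87 for the nuclear subunits (-0.55 without WT_ND replicates 1 and 4) and -0.85 for the assembly factors. All 12 fibre markers were called lower in this comparison too (median -0.91), and all 10 macrophage and all 8 progenitor markers higher. Their part in the complex I values was not tested. After TPM scaling 18 members were called lower and 4 higher (Ndufa1, Ndufa2, Ndufaf5 and Ndufs5 on chromosome 5), where 4.73% of all tested genes were lower and 57.2% higher, and relative to the TPM median of all genes (0.56) the classes stood at -1.25, -0.73 and -0.70. This comparison shares its DMD_KD libraries with the diet comparison and its WT_ND libraries with the genotype comparison, so the values are given side by side only.

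All 7 Mt-nd genes had no overlap between DMD_KD and WT_ND, with means in DMD_KD of 35.1% (Mt-nd1) to 43.6% (Mt-nd3) of the WT_ND mean. In DMD_ND the same shares were 24.1% for Mt-nd1 and 33.2% for Mt-nd3. Ndufs1 was at 38.3% of the WT_ND mean in DMD_KD and at 32.1% in DMD_ND. Of the assembly factors, all 7 were called lower in DMD_KD under the deposited scaling, but none after TPM scaling, when Ndufaf5 was called higher. Ndufaf3 and Ndufaf5 also lost the call when single libraries were left out (highest adjusted p = 0.15 and 0.089). Ndufaf1 was at 49.96% of the WT_ND mean in DMD_KD and 43.1% in DMD_ND.

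The 5 members not called in DMD_KD against WT_ND were Ndufa13, Ndufa2, Ndufs5 on chromosome 5, Ndufa3 and Ndufa4l2. Ndufa13, an inner-membrane subunit also known as GRIM-19, read 144, 186 and 375 FPKM in DMD_KD (lowest, median and highest) and 364, 238, 351 and 211 FPKM in WT_ND replicates 1, 3, 4 and 9. The highest DMD_KD library, replicate 3, lay above all WT_ND libraries. The log2 fold change was -0.53 ± 0.22 (limma adjusted p = 0.053), and -0.71 (adjusted p = 0.00099) without that replicate. Without WT_ND replicates 1 and 4 it was -0.19, that of Ndufa2 -0.15 and that of Ndufs5 on chromosome 5 -0.16. Ndufa2 had -0.43 ± 0.19 (adjusted p = 0.059) and -0.58 (adjusted p = 0.0017) without it, and Ndufs5 on chromosome 5 had -0.34 ± 0.16 (adjusted p = 0.07) and -0.45 (adjusted p = 0.0067). Ndufa3 and Ndufa4l2 were not called with or without it.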

How the data were processed

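Poly-A RNA of the tibialis anterior was sequenced in 16 libraries. Per the labels' protocols the library could be directional or not. Per the submitters' processing notes, the tools were featureCounts 1.5.0-p3 and HISAT2 2.0.5, with mRatBN7.2 as build. Not given in the sources used here are the strand setting, annotation release and handling of reads with several matches. The authors deposited FPKM for 31141 genes. FPKM times gene length gave whole reads for 100% of values (within 0.05), and showed that the authors had divided by size factors (means of 1.10 in DMD_KD, 1.23 in DMD_ND and 0.714 in WT_ND). No pair of replicates was alike within counting error (chi-square over its degrees of freedom at least 11.7), so each counted once.

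The 12119 genes that reached 1 FPKM in 4 or more libraries were tested by limma 3.58.1 (R 4.3.3) after a log2(FPKM + 1) transform. Group means were fitted to all 16 libraries (13 residual degrees of freedom, eBayes trend and robust), with two-sided Benjamini-Hochberg adjusted p over all tested genes. The test was checked on simulated data. Class medians, motif shares and correlations are descriptions without a test. Replicate numbers were not used as pairs in the main fit. Correlations of same-numbered deviations were -0.66 to 0.41, which cannot show whether the numbers link libraries. Alternatives were other scalings, filters, pseudocounts, weights and tests, and leaving libraries out.

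The members and gene lists were chosen with earlier results of these data known. Named members were, in each nuclear class and comparison, up to 4 with the smallest p and the largest change in each direction. They also included all mitochondrially encoded members, the Ndufa4 pair, members not tested, not called or called against their class, and the highest and lowest by level. Of each other list, at most 3 genes with the smallest p were named. The YY1-matched genes, the N module subunits and the list genes beyond these were chosen after their values were seen. The values of 1 member are not reported here.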

Additional observations from a re-analysis of the deposited data

Results flagged for a closer look

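Dixon's criterion was applied to 114 sets of 6 or 4 library values (35 named members and 3 class sums in 3 groups). In 22 sets a library lay far from the rest. The sets share the same libraries, so these 22 are not independent of each other and are not set against a chance rate. In 18 of the 22 sets the library was DMD_KD replicate 3, which lay above the others. There the nuclear subunits summed to 6761.78 FPKM, where the other DMD_KD libraries had 2816.59 to 3943.38 FPKM. Among mitochondrially encoded members it read 15948.9 FPKM for Mt-nd1, 9864 for Mt-nd3, 4839.98 for Mt-nd4l and 3424.79 for Mt-nd5. Among core subunits it read 330.5 FPKM for Ndufs3, 73.8 for Ndufs7 and 251 for Ndufv1. Among accessory subunits it read 43.6 FPKM for Ndufa1, 9.04 and 85.6 for Ndufa10l1 on chromosomes 6 and 9, 375 for Ndufa13, 242 for Ndufa2, 257 for Ndufa9, 108 for Ndufab1, 228 for Ndufb5 and 887 for Ndufb8. Among assembly factors it read 48.3 FPKM for Ndufaf3.

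The other 4 were single values. Ndufaf1 read 7.09 FPKM in DMD_KD replicate 10, below the others at 9.10 to 9.90. Ndufb5 read 109.9 FPKM in DMD_ND replicate 7, above the others at 101 to 102. Ndufb8 read 383 FPKM in DMD_ND replicate 5, above the others at 306 to 329. Ndufs3 read 101 FPKM in DMD_ND replicate 9, below the others at 117 to 126. The cause of these values was not tested.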

How the results depend on the processing

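Leaving out 1 library at a time, the members called lower numbered 49 to 50 in DMD_ND against WT_ND and 40 to 50 in DMD_KD against WT_ND, with 0 higher, and 0 between the diets. Of all tested genes, 3723 to 4440 were called lower in the first of these comparisons and 3197 to 4126 in the second. Over these fits, the nuclear median log2 fold change was -1.31 to -0.99 (DMD_ND against WT_ND), 0.12 to 0.36 (DMD_KD against DMD_ND) and -1.03 to -0.75 (DMD_KD against WT_ND). The assembly median was -0.98 to -0.65, 0.08 to 0.25 and -0.85 to -0.75 in that order, and the mitochondrially encoded median -1.87 to -1.64, 0.29 to 0.43 and -1.54 to -1.32.

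Scaling moved most. In DMD_ND against WT_ND, TPM gave 21 lower, 8 higher and medians of -0.13 (nuclear), 0.15 (assembly) and -0.74 (mitochondrially encoded), and TPM without mitochondrial genes in the total gave -0.49, -0.21 and -1.11. In DMD_KD against WT_ND, TPM gave 18 lower, 4 higher, -0.16, -0.14 and -0.69, and TPM without mitochondrial genes -0.45, -0.43 and -0.98. Between the diets TPM gave -0.054 (assembly) and 0.087 (mitochondrially encoded). In DMD_KD against WT_ND the exact rank-sum test gave 26 lower and the fit with the replicate block 26 lower. Of all 12119 tested genes the rank-sum test called 2526 lower and the block fit 2465, against 3764 in the main fit. Same-numbered libraries had deviations with correlations of mixed sign, which cannot show whether the numbers link libraries. The block fit is therefore given as an alternative. Leaving out WT_ND replicates 1 and 4 together, chosen after seeing the data, gave 28 members lower, where 2733 of all 11977 tested genes were lower. The medians there were -0.55 (nuclear) and -1.16 (mitochondrially encoded), with a nuclear median of -0.82 in DMD_ND against WT_ND. The cause was not tested.

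TPM changed the sign of 17 of 52 members in DMD_ND against WT_ND, 23 in DMD_KD against DMD_ND and 16 in DMD_KD against WT_ND. Among the members named for each comparison, the sign changes were as follows. In DMD_ND against WT_ND, Ndufa3 had -0.21 with library weights, -0.27 with the replicate block, -0.017 and -0.092 without WT_ND replicate 1 or 4 (range without 1 library -0.092 to 0.18), and -0.29 without both. TPM gave 0.12 for Ndufa4, 0.56 for Ndufa4l2, 0.45 for Ndufaf4 and 0.40 for Ndufaf7, and without mitochondrial genes 0.24, 0.11 and 0.11 for the last 3, and the block gave 0.14 for Ndufa4l2. Between the diets, Ndufa3 had 0.067 with the block and -0.092 to 0.00095 when 1 library was left out. Ndufa4l2 had 0.03 to 0.10 without DMD_KD replicate 7, 9 or 10 or DMD_ND replicate 5 or 9. TPM gave -0.14 for Ndufa4, -0.051 for Ndufaf1, -0.0096 for Ndufaf2, -0.017 for Ndufaf3 and -0.10 for Ndufaf7, and without mitochondrial genes -0.062 for Ndufa4 and -0.041 for Ndufaf7. In DMD_KD against WT_ND, TPM gave 0.22 for Ndufa13, 0.31 for Ndufa2, 0.30 for Ndufa4l2, 0.048 for Ndufa5, 0.30 for Ndufaf7 and 0.38 for Ndufs5 on chromosome 5, and without mitochondrial genes 0.025 for Ndufa2, 0.048 for Ndufa4l2, 0.064 for Ndufaf7 and 0.10 for Ndufs5. Ndufa3 had -0.23 with weights, -0.20 with the block, -0.34 without WT_ND replicates 1 and 4, and -0.15 to 0.13 when 1 library was left out, below 0 without DMD_KD replicate 3 or 9 or WT_ND replicate 1 or 4.

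The tested members with the fewest reads were Ndufv3-ps1, with 8 to 25 per library, and Ndufa3, with 18 to 99.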
